A study of Rattus norvegicus with 24 samples.

Results

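Trac, Cd3d, Cd3e, Cd3g, Cd4, Cd8a, Cxcr6, Gzmb, Prf1 and Nkg7 are genes of T cells and of cytotoxic lymphocytes, and all 10 were found among the 30667 genes of an RNA sequencing table of rat lung. They were chosen by name, by a list drawn up with earlier results of these data known, and were followed across all 24 samples by the letter and by the number in each sample title. The series concerns a rat lung cancer model that uses smoky coal, and every one of the 24 samples is lung tissue under the same smoky coal label. The titles run from A1 to A6, B1 to B6, C1 to C6 and G1 to G6, which gives 4 letters with 6 samples each and 6 numbers with 4 samples each, one of every letter. What the letters and numbers stand for, the strain, age, dose and time of each sample, and whether any letter is an untreated control are not given in the sources used here. Nothing says that samples sharing a letter came from separate animals, or whether samples sharing a number came from a common animal, so the p-values below measure only the spread between these samples. Values are the deposited normalized read counts per gene, which sum to between 61717516 and 66007148 per sample.

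The T cell receptor recognises peptides held by MHC molecules on other cells. It is a pair of variable chains, of which Trac encodes the constant region of the alpha chain, and it signals only together with the CD3 chains encoded by Cd3d, Cd3e and Cd3g. Cd4 and Cd8a encode the co-receptors that bind MHC class II and class I. In the rat, CD4 is also carried by monocytes and macrophages, and CD8 alpha by natural killer (NK) cells, so neither is restricted to T cells. Cytotoxic T cells and NK cells kill by releasing granules that hold perforin (Prf1), which forms pores, and granzyme B (Gzmb), a protease that starts cell death, and Nkg7 is a membrane protein of those granules. Cxcr6 is the receptor of the chemokine CXCL16 and is known for keeping memory T cells in the lung and its airways.

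Promoter windows, 250 bases before to 50 bases after a transcript start, were found in RefSeq's GRCr8 tables for 8 of the 10 genes, all but Trac and Cd4. For 5 of the 8 that start was the outer end of the annotated gene, and for Cd3g, Cd3d and Cxcr6 it lay 169, 946 and 3372 bases inside the gene, so their windows are not those of the outermost start and are not shown. Cd3g, Cd3d and Cd3e lie side by side on chromosome 8 with no other annotated gene between them. The promoters of 4 genes are shown, a chain of the receptor complex beside killing genes, of which Prf1 and Nkg7 differed from it below. They are Cd3e at chr8:54211721-54212020 (minus strand), Gzmb at chr15:34462420-34462719 (minus strand), Prf1 at chr20:29788790-29789089 (plus strand) and Nkg7 at chr1:102981247-102981546 (plus strand). Capitals mark TGACGT, part of the cyclic AMP response element, and TGTGGT, the core bound by RUNX factors, on either strand, so that ACGTCA and ACCACA are the same motifs read on the other strand.
Cd3e: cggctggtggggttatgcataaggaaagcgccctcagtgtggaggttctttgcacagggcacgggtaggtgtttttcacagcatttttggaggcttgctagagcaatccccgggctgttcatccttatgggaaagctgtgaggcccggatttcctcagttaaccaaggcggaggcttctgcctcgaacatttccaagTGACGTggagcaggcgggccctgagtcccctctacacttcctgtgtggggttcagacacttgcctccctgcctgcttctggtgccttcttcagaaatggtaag
Gzmb: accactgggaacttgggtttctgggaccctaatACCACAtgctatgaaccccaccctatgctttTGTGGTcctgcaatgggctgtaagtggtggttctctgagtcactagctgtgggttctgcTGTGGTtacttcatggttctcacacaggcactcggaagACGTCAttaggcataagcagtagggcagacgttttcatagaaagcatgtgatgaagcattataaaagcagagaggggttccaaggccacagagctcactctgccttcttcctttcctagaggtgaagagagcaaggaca
Prf1: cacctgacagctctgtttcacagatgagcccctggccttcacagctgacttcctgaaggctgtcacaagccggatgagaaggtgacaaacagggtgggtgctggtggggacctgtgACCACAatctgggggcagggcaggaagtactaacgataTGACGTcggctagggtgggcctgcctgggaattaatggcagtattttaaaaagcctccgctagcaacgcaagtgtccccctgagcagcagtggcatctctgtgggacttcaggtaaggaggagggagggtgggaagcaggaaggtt
Nkg7: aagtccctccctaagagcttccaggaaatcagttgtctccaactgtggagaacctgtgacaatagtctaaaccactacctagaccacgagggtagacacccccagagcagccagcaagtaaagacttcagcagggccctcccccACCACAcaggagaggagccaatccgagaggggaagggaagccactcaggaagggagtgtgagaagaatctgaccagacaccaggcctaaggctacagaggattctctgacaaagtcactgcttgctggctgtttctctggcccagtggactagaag

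TGACGT was present in 4 of the 8 windows, those of Cd3e, Gzmb, Prf1 and Cxcr6, and in 7.94% of the 33469 rat windows of the same length. The Cxcr6 match lies after the start used, in the window inside that gene. TGTGGT was present in 3 of the 8, those of Gzmb, Prf1 and Nkg7, and in 17.3% of all. The Cd3d, Cd3g and Cd8a windows held neither. Each window shown above holds TGACGT or TGTGGT, and that of Cd8a, from the outer end of its gene, is not shown. Of the other motifs searched on both strands, CAGNTG (E-box) was in 4 of 8 and 50.2% of all, CAGGAA (ETS) in 5 of 8 and 29.1%, and CTTTGA (TCF) in 1 of 8 and 16.1%. The motifs were chosen after the sequences had been seen, and a match describes letters in this window, not a bound site.

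The levels of these genes varied with the number in the sample title. Samples numbered 2 were high in all 10 genes, against 11.5% of all genes, and in 5 without samples A2 and C2, against 4.93%. Samples numbered 6 were high in 6, against 4.11% of all genes, a count that fell without B6. Samples numbered 1 were low in 5, the receptor genes and Cxcr6, against 6.25% of all genes. Cxcr6 there was at 0.365 times its level at the other numbers. Of the killing genes, Prf1 and Nkg7 did not follow the receptor genes at every number. At number 1, Prf1 and Nkg7 were not called while the CD3 genes were low. Of 23 other cytotoxic and NK cell genes, 6 were lower there, against 6.25% of all genes. At number 3, Prf1 fell while no CD3 gene was called. No gene of the 10 passed the test between letters. In bulk tissue, fewer cells of a type and less RNA per cell cannot be told apart.

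Some samples stood apart. A2 and C2 had Gzmb and Cd8a levels well above the other samples of their letters and, for A2, the highest neutrophil marker sum of the 24 samples, and A4 and B4 had the highest red blood cell sums. The number 2 results of the 10 genes and of the lists are therefore also given without A2 and C2. Number 2 then rests on B2 and G2 alone. A2 and C2 were picked by values of Cd8a and Gzmb among others, so calls gained or lost without them are not independent evidence. For each gene, limma was fitted to log2(value + 1) across the whole table with terms for letter and number, and each number was set against the mean of the other 5, so that a difference below is on that log2 scale, given with its standard error (SE). The F test over the 6 numbers was passed by 10 of 10 genes at a limma adjusted p under 0.05, against 31.5% of all genes tested. Number accounted for 94.9% of the variance of Cxcr6, 93.9% of that of Trac, and 82.7% to 87.0% of that of the CD3 genes, and letter for 3.52% or less of each, where the medians over all genes were 37.1% for number and 9.45% for letter. For Gzmb the shares were 44.6% and 12.8%, and its adjusted p of 0.0349 rose to at most 0.104 when samples were left out.

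**Figure D1:**
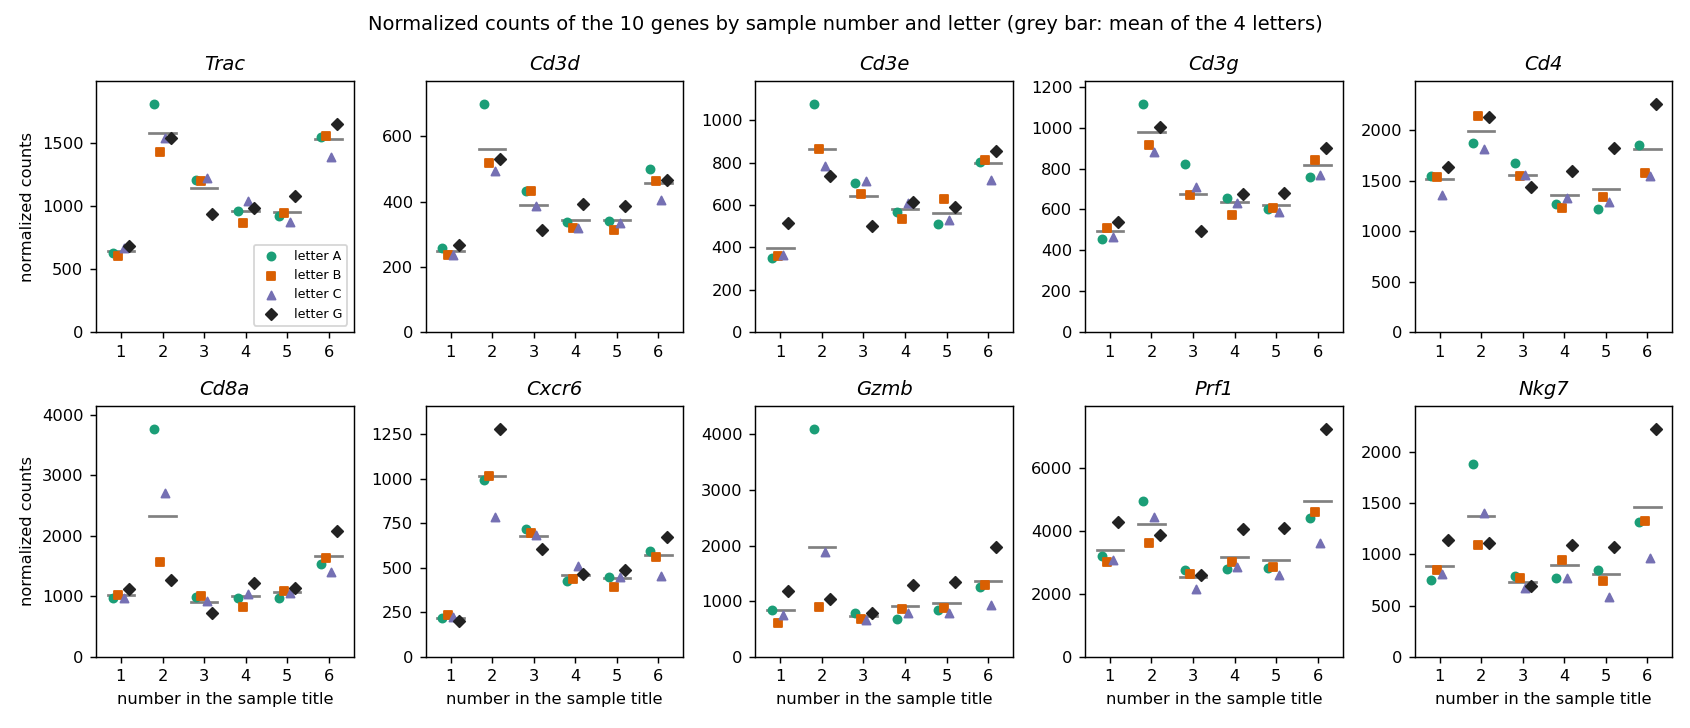
Normalized read count (vertical axis) of each of the 10 genes by the number in the sample title (horizontal axis), with 1 point per sample and the letters A, B, C and G marked by colour and shape. Samples sharing a number lie close together for Trac and Cxcr6, while Gzmb in A2 (4104) and C2 (1892) stands far above B2 (897) and G2 (1032).

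Trac ran from 603 to 1806 over the 24 samples. At number 1 it was 622, 603, 663 and 678 in A, B, C and G. It was 1806, 1426, 1539 and 1536 at number 2, with 1546, 1548, 1385 and 1647 at number 6. The 4 samples numbered 1 lay wholly below the other 20, and samples numbered 2 and 6 overlapped each other. The values were 1200.0, 1194, 1222 and 932 at number 3, with 956, 860.5, 1037 and 983 at number 4 and 923, 941, 874 and 1077 at number 5. Those 12 samples fell between the low and the high numbers with no overlap on either side. Within 1 number the highest sample was at most 1.31 times the lowest. Trac was lower at number 1 by a log2 difference of -0.90 ± 0.07 (limma adjusted p = 2.38e-07), higher at number 2 by 0.65 ± 0.07 (adjusted p = 4.84e-06) and higher at number 6 by 0.60 ± 0.07 (adjusted p = 8.14e-05).

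The 3 CD3 chains, which carry the signal of the receptor into the cell, were likewise lowest at number 1 and highest at number 2 on average. Cd3e was 349, 358, 366 and 516 at number 1 in A, B, C and G, 1077, 863, 783 and 737 at number 2 and 804, 814, 717 and 854 at number 6. It was 705, 651, 711 and 498 at number 3, 565, 534, 611 and 613 at number 4 and 508, 629.7, 528 and 589 at number 5. G1 was the highest of the samples numbered 1 and exceeded G3 and A5, so the groups overlapped there. Cd3d was 257, 237, 238 and 267 at number 1, wholly below the other 20 samples, and 699.5, 519, 495 and 531 at number 2. Cd3g was 455, 511, 464 and 540.3 at number 1 and 1116, 914, 882 and 1002 at number 2, where G6 alone among the other 20 samples exceeded the lowest of them, C2. At number 1 the log2 differences were -0.71 ± 0.08 for Cd3d, -0.78 ± 0.11 for Cd3e and -0.57 ± 0.09 for Cd3g (limma adjusted p at most 0.000393). With Trac and Cxcr6 these made 5 genes lower at number 1, where 6.25% of all genes tested were called lower, and that count was 5 each time a sample was left out. Of the 10 genes, Trac, Cd3d and Cxcr6 lay wholly below all other samples at number 1, which 0.734% of all genes did.

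At number 6 the CD3 genes rose by smaller amounts, 0.33 ± 0.08 for Cd3d, 0.44 ± 0.11 for Cd3e and 0.31 ± 0.09 for Cd3g on the log2 scale (limma adjusted p = 0.0196, 0.0152 and 0.0413). Together with Trac, Prf1 and Nkg7 they made 6 of 10 genes higher, against 4.11% of all genes. That count fell to 2 without B6, where 1.4% of all genes were higher, and rose to 8 without A2 and C2, where 5.07% were.

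**Figure D2:**
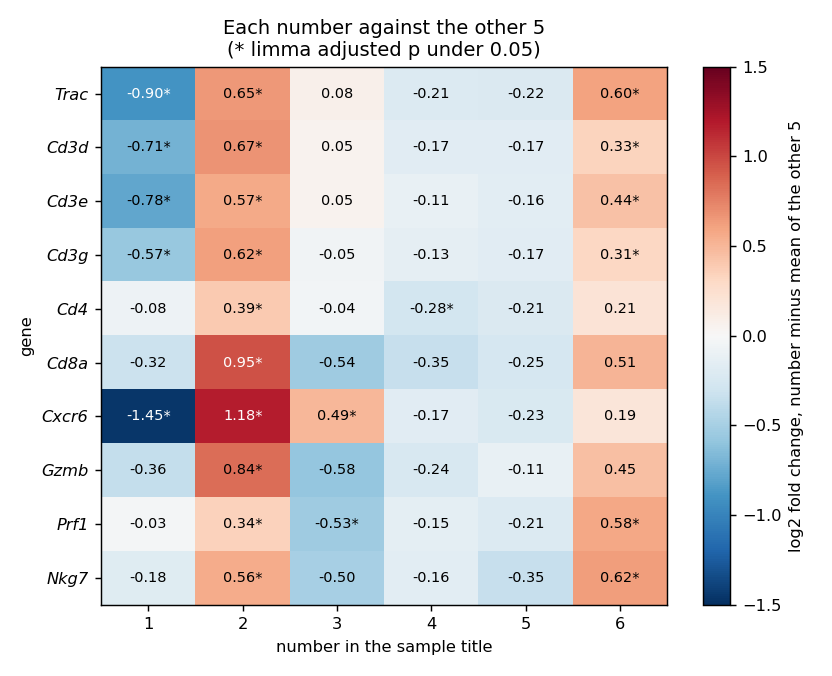
Log2 fold change of each of the 10 genes (rows) for each sample number against the mean of the other 5 (columns), coloured from low (blue) to high (red), with an asterisk where the limma adjusted p was under 0.05. Cxcr6 spans from -1.45 at number 1 to 1.18 at number 2, and Prf1 from -0.53 at number 3 to 0.58 at number 6.

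Cxcr6 had the largest differences between numbers of the 10 genes, and its highest sample was 6.41 times its lowest. In A, B, C and G it was 219.5, 232, 223 and 200.2 at number 1, 451, 394, 449 and 487 at number 5, 426, 435, 512 and 465 at number 4, 594, 562, 453 and 674 at number 6, 718, 696, 685 and 606 at number 3 and 992, 1015, 783 and 1283 at number 2. The samples numbered 1 lay wholly below all others and those numbered 2 wholly above, a position at number 2 that 1.11% of all genes shared. Numbers 5, 4 and 6 overlapped each other, and numbers 6 and 3 overlapped through G3 and G6. The log2 difference was -1.45 ± 0.10 at number 1 (limma adjusted p = 2.85e-08), 1.18 ± 0.10 at number 2 (adjusted p = 1.46e-07) and 0.49 ± 0.10 at number 3 (adjusted p = 0.00388), the only one of the 10 genes higher at number 3, where 2.89% of all genes were. Cxcl16, which encodes its ligand and was singled out after its values had been seen, was higher at number 2 by 0.66 ± 0.10 (adjusted p = 0.000116), and by 0.33 ± 0.08 without A2 and C2 (adjusted p = 0.0114). Cxcr6 at number 2 remained higher without A2 and C2, by 1.36 ± 0.12 (adjusted p = 1.46e-06).

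Cd4 varied least of the 10 genes, with a highest sample 1.85 times the lowest. At number 2 it was 1872, 2142, 1816 and 2132 in A, B, C and G, against 1541, 1533, 1356 and 1634 at number 1 and 1268, 1229, 1331 and 1589.9 at number 4. G6, at 2259, was the highest sample of all, so number 2 overlapped the rest. The log2 difference at number 2 was 0.39 ± 0.08 (limma adjusted p = 0.000806), and at number 1 Cd4 differed by only -0.08 ± 0.08 (adjusted p = 0.608). At number 4 it was lower by 0.28 on the log2 scale (adjusted p = 0.0397), the only gene of the 10 called there, where 2.02% of all genes were called lower, and this call was lost in 14 of 33 alternatives. Macrophage and dendritic cell markers, among cells that also carry CD4 in the rat, had a summed level of 124288 to 142172 at number 1, 143507 to 224143 at number 2 and 190435 to 230159 at number 3. Most of that sum was Lyz2, with 88560 of 124288 in G1 and 164623 of 230159 in A3, so it is mainly the level of 1 gene. At number 3, 4 of the 14 genes were higher, where 2.89% of all genes were, and 10 were not called. Among those 10 was Csf1r, at 0.08 (limma adjusted p = 0.651). The part of these cells in the Cd4 level was not tested.

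Cd8a and Gzmb shared their high samples. Cd8a was 3777, 1561, 2708 and 1278 in A2, B2, C2 and G2, and between 720.2 and 2076 in the other 20 samples. Gzmb was 4104, 897, 1892 and 1032 in A2, B2, C2 and G2, and between 615 and 1975 in the others. For both genes the high level at number 2 lay in A2 and C2, and B2 and G2 were within the range of the other samples. G6 held the highest value of both genes outside number 2. With all 24 samples the log2 difference at number 2 was 0.95 ± 0.17 for Cd8a (limma adjusted p = 0.000523) and 0.84 ± 0.24 for Gzmb (adjusted p = 0.0156). Without A2 and C2 it was 0.32 ± 0.14 for Cd8a (adjusted p = 0.185) and -0.09 ± 0.14 for Gzmb (adjusted p = 0.793).

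A2 and C2 also differed from the rest in the balance between these genes. The log2 level of Cd8a minus that of Cd4 in the same sample was 1.01 in A2 and 0.58 in C2, and 0.05 or less in each of the other 22 samples. Log2 Gzmb minus log2 Prf1 was -0.27 in A2 and -1.23 in C2, with a median of -1.83 over the 24 samples. Across the 24 samples, after letter means were subtracted, Cd8a and Gzmb had a Pearson r of 0.94, which is a description over samples that share letters, numbers and these high values.

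**Figure D3:**
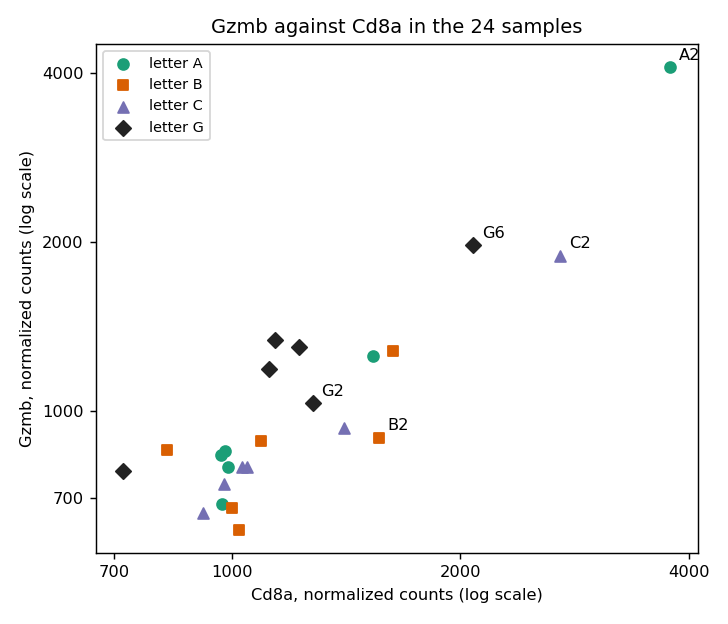
Gzmb (vertical axis) against Cd8a (horizontal axis) in the 24 samples, as normalized read counts on log axes, with letters by colour and shape. A2 (Cd8a 3777, Gzmb 4104) is highest in both, C2 (2708 and 1892) and G6 (2076 and 1975) come next, and B2 and G2 lie among the other samples.

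Prf1 and Nkg7, the other genes of the killing granules, had their highest average levels at numbers 6 and 2. Prf1 was 3202, 3011, 3087 and 4266 in A, B, C and G at number 1, 4954, 3614, 4426 and 3851 at number 2 and 2763, 2616, 2156 and 2589 at number 3. It was 2795, 3013, 2845 and 4068 at number 4, 2810.0, 2843, 2583 and 4101 at number 5 and 4389.9, 4583, 3607 and 7246 at number 6. The samples numbered 3 were 4 of the 5 lowest, and G6 was far above the other samples. Prf1 was higher at number 6 by 0.58 ± 0.10 (limma adjusted p = 0.00177), higher at number 2 by 0.34 ± 0.10 (adjusted p = 0.0198) and lower at number 3 by 0.53 on the log2 scale (adjusted p = 0.00394), where 2.09% of all genes were called lower. It was the only gene of the 10 lower there, and without A2 and C2 there were 4 (Cd8a, Gzmb, Prf1 and Nkg7), against 2.94% of all genes in that fit. Cd8a and Gzmb were among the genes by which A2 and C2 were picked, so their calls in that fit are not a separate result. At number 1, where the receptor genes were low, Prf1 differed by -0.03 ± 0.10 (adjusted p = 0.895). The number 2 difference of Prf1 was 0.03 ± 0.11 without A2 and C2 (adjusted p = 0.911).

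Nkg7 was 1313, 1326, 968 and 2231 in A, B, C and G at number 6, 1888, 1096, 1405 and 1111 at number 2, 751, 849.9, 809 and 1145 at number 1 and 794, 768, 673 and 687 at number 3. A2 and G6 were its 2 highest samples, and numbers 1, 2 and 6 overlapped. It was higher at number 6 by 0.62 ± 0.14 (limma adjusted p = 0.0111) and at number 2 by 0.56 ± 0.14 (adjusted p = 0.00787), while -0.50 ± 0.14 at number 3 missed the threshold (adjusted p = 0.0514). Its number 2 difference was 0.11 ± 0.15 without A2 and C2 (adjusted p = 0.753). In all, 10 of 10 genes were higher at number 2, against 11.5% of all genes tested, and 5 of 10 (Trac, Cd3d, Cd3g, Cd4 and Cxcr6) without A2 and C2, against 4.93% of all genes in that fit. At number 5 no gene of the 10 passed at an adjusted p under 0.05, where 0.88% of all genes were called higher and 1.09% lower. The unadjusted p was under 0.05 there for 4 of them (Trac, Cd4, Cxcr6 and Nkg7), all lower, where 8.1% of all genes were lower at that threshold.

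Set against Cd3e in the same sample, the genes separated further. The log2 difference of each gene from Cd3e was compared between each number and the other 5 by an exact permutation test. The test was two-sided, of the numbers within letters (1296 arrangements), for 42 combinations of 7 genes and 6 numbers. The p-values were adjusted over the 42, and 8 passed. It was not run on other genes, so the share of all genes that would pass is not known. This comparison and its reference gene were chosen after the values had been seen, so its p-values are not evidence separate from the contrasts above. At number 1, where Cd3e itself was lower by 0.78, Cd4, Prf1 and Nkg7 were higher relative to Cd3e and Cxcr6 was lower. Cd4, Prf1 and Nkg7 themselves differed there by -0.08, -0.03 and -0.18, none of them called, so their shifts mostly restate the low Cd3e. Log2 Cd4 minus log2 Cd3e averaged 1.95 at number 1 and 1.24 at the other numbers, a shift of 0.71 in the same direction in 4 of 4 letters (exact permutation p = 0.000772, the smallest this test can give, adjusted p = 0.0216). Log2 Prf1 minus log2 Cd3e averaged 3.10 and 2.35, a shift of 0.75 (exact permutation p = 0.00154, adjusted p = 0.0216), and the Nkg7 shift was 0.61 with the same p. Log2 Cxcr6 minus log2 Cd3e averaged -0.84 at number 1 and -0.17 elsewhere, a shift of -0.67 (exact permutation p = 0.00231, adjusted p = 0.0243). The shifts of Cd8a (0.47, exact permutation p = 0.0309, adjusted p = 0.13) and Gzmb (0.43, exact permutation p = 0.11, adjusted p = 0.329) did not pass.

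At number 2, Cxcr6 was higher relative to Cd3e by 0.61 (exact permutation p = 0.00849, adjusted p = 0.0446), and without A2 and C2 by 0.93. Without them the test used letters B and G alone. Its exact permutation p of 0.0278, unadjusted, is the smallest that this smaller test can give. At number 3, where the CD3 genes were near the other samples, Cd8a, Prf1 and Nkg7 were lower relative to Cd3e by shifts of -0.59, -0.58 and -0.55, each in 4 of 4 letters (exact permutation p = 0.00617, adjusted p = 0.037). Trac passed at no number, with shifts between -0.12 and 0.16 and a lowest adjusted p of 0.194. At number 6 none of the 7 genes passed.

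**Figure D4:**
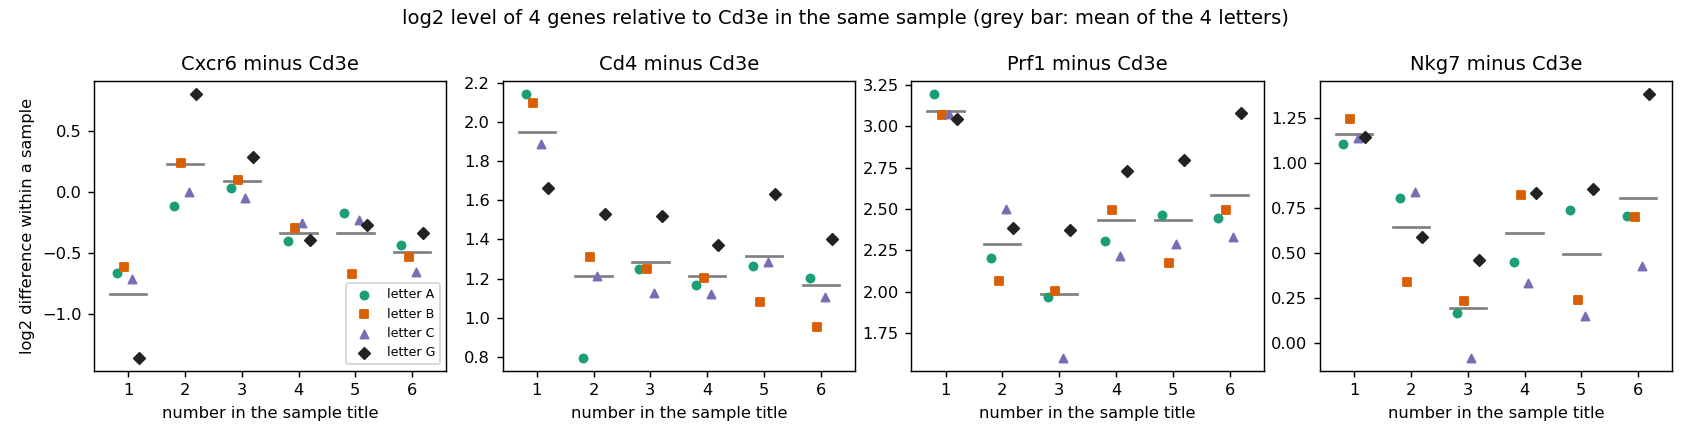
Log2 level of Cxcr6, Cd4, Prf1 and Nkg7 minus log2 level of Cd3e in the same sample (vertical axis) by sample number (horizontal axis), with points for the 4 letters and a grey bar for their mean. The mean for Prf1 is 3.10 at number 1 and 1.99 at number 3, and that for Cxcr6 is -0.84 at number 1 and 0.23 at number 2.

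The genes most like Cd3e over the 24 samples, after letter means were subtracted and among 17551 genes with a mean of at least 50, were Cd6 (Pearson r = 0.97), Acap1 (0.97), Cd5 (0.96), Skap1 (0.95) and Trbc1 (0.95). Cd5 and Cd6 are surface receptors of T cells, Skap1 is an adaptor of T cell signalling, and Trbc1 encodes a constant region of the receptor's beta chain. Those most like Prf1 were Il2rb (0.95), Gzmm (0.95), Gzma (0.94), Cd22 (0.93) and Pou2f2 (0.92). Il2rb is a receptor chain for interleukins 2 and 15, Gzmm and Gzma are granzymes, and Cd22 is a surface protein of B cells. Prf1 itself had an r of 0.95 with Nkg7, 0.53 with Cd3e and 0.18 with Cxcr6. All of these are descriptions over samples that share numbers.

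Other genes of the receptor complex and its signalling moved with Trac and the CD3 genes. Of 22 listed, 18 were lower at number 1, 18 higher at number 2 and 15 higher at number 6, with median log2 differences of -0.56, 0.44 and 0.46 where the medians over all genes were -0.02, 0.01 and 0.00. The shares of all genes called were 6.25% lower at number 1, 11.5% higher at number 2 and 4.11% higher at number 6. At number 1, Cd5, an inhibitory receptor, was lower by 0.98 ± 0.08 (limma adjusted p = 2.38e-07) and Cd2, an adhesion receptor, by 0.88 ± 0.09 (adjusted p = 1.84e-06). At number 2, Cd2 was higher by 1.09 ± 0.09 (adjusted p = 1.3e-07) and Cd8b1, the second CD8 chain, by 1.05 ± 0.20 (adjusted p = 0.000717), and without A2 and C2 by 1.08 ± 0.12 (adjusted p = 1.51e-05) and 0.87 ± 0.28 (adjusted p = 0.0576). At number 6 the co-stimulatory receptor Cd28 was higher by 0.74 ± 0.12 (limma adjusted p = 0.000925). Without A2 and C2, 7 of the 22 were higher at number 2, against 4.93% of all genes in that fit.

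Of 23 cytotoxic and NK cell genes found, 6 were lower at number 1, 14 higher at number 2, 6 lower at number 3 and 12 higher at number 6. The matching shares of all genes were 6.25%, 11.5%, 2.09% and 4.11%. At number 3 the granzyme genes Gzma, Gzmm and Gzmk were lower by 0.64 ± 0.12, 0.57 ± 0.11 and 0.51 ± 0.09 (limma adjusted p at most 0.00297), and so was Tbx21, which encodes the transcription factor T-bet, by 0.55 ± 0.12 (adjusted p = 0.0112). At number 6, Fasl, the ligand of the death receptor Fas, was higher by 0.94 ± 0.10 (adjusted p = 2.2e-05), Tbx21 by 0.92 ± 0.12 (adjusted p = 0.000199) and Gzma by 0.85 ± 0.12 (adjusted p = 0.000251). At number 1, Ctsw, a cathepsin of cytotoxic cells, was lower by 1.14 ± 0.15 (adjusted p = 4.07e-05) and Fasl by 0.70 ± 0.10 (adjusted p = 8.35e-05). At number 2, Cst7, a cystatin of cytotoxic cells, was higher by 1.52 ± 0.16 (adjusted p = 3e-06) and the chemokine gene Xcl1 by 1.87 ± 0.31 (adjusted p = 0.000192), and without A2 and C2 by 1.14 ± 0.19 (adjusted p = 0.000708) and 1.29 ± 0.41 (adjusted p = 0.0507). Without A2 and C2, 3 of the 23 were higher at number 2, against 4.93% of all genes in that fit.

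Of 14 helper and regulatory T cell genes, 3 were lower at number 1, 7 higher at number 2 and 4 higher at number 6, against 6.25%, 11.5% and 4.11% of all genes. Ctla4, an inhibitory receptor, was lower at number 1 by 1.39 ± 0.24 (limma adjusted p = 0.000826) and higher at number 2 by 1.68 ± 0.24 (adjusted p = 6.02e-05), and without A2 and C2 by 1.38 ± 0.34 (adjusted p = 0.0142). When A2 and C2 were left out, 2 of the 14 were higher at number 2, against 4.93% of all genes in that fit. A2 held the highest values of Ctla4 (417), Ifng (100.04) and Il17a (77.3), where the medians over 24 samples were 106, 3.03 and 0.0096.

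Among 16 genes of homing, tissue residence and checkpoint receptors, 6 were lower and 1 higher at number 1, against 6.25% and 5.62% of all genes. At number 2, 9 were higher and 2 lower, against 11.5% and 10.3% of all genes. At number 6, 4 were higher, against 4.11%. Pdcd1, the gene of PD-1, was lower at number 1 by 1.46 ± 0.20 (limma adjusted p = 7.18e-05). Cxcr3, a chemokine receptor of activated T cells, was lower there by 1.15 ± 0.14 (adjusted p = 1.79e-05), and Itgae, an integrin of T cells resident in epithelium, by 0.88 ± 0.15 (adjusted p = 0.000682). At number 2 the checkpoint genes Tigit, Lag3 and Havcr2 were higher by 1.59 ± 0.26, 1.49 ± 0.24 and 1.45 ± 0.22 (adjusted p at most 0.000183). Of these, Havcr2 alone kept its call without A2 and C2, at 1.43 ± 0.30 (adjusted p = 0.00425), while Tigit was at 1.06 ± 0.34 (adjusted p = 0.0537) and Lag3 at 0.83 ± 0.27 (adjusted p = 0.0628). Without A2 and C2, 6 of the 16 were higher and 2 lower at number 2, against 4.93% and 4.67% of all genes in that fit.

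Markers of other cells also differed between numbers. Of all genes, 6.25% were lower and 5.62% higher at number 1, and 11.5% were higher and 10.3% lower at number 2. The shares were 2.89% higher and 2.09% lower at number 3, 2.02% lower at number 4 and 4.11% higher at number 6. Without A2 and C2 they were 4.93% higher and 4.67% lower at number 2. Of 12 B cell genes, 10 were higher at number 6 and 5 lower at number 3, and their summed level was 9692 to 10245 at number 6 and 4191 to 7569 at the other numbers. Cr2, a complement receptor of B cells, was higher at number 6 by 1.32 ± 0.17 (limma adjusted p = 0.00016). Of 14 macrophage and dendritic cell genes, 7 were higher at number 2 (also 7 without A2 and C2), 4 higher at number 3 and 4 lower at number 1. Of 10 proliferation genes, 9 were higher at number 2 (6 without A2 and C2), and Rrm2 rose there by 2.03 ± 0.28 (adjusted p = 3.57e-05), or by 0.997 ± 0.22 without A2 and C2 (adjusted p = 0.00599). At number 1, where the receptor genes were low, 2 proliferation genes, Top2a and Cdk1, were higher, with a list median of 0.51, and 3 were lower at number 4. Of 10 neutrophil genes, 3 were lower at number 1 and 2 higher at number 2 (0 without A2 and C2), with sums of 2948 to 12526 and 5829 to 35424. Of 7 red blood cell genes, 5 were lower at number 1, 5 lower at number 2 (0 without A2 and C2) and 5 higher at number 4, where 2.72% of all genes were higher. The part of these cells in the T cell results was not tested.

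The tissue label and the thymus were checked by their markers. The lung epithelium genes were abundant in every sample, with Sftpc, a surfactant protein gene, between 603887 and 932776, and the list's median difference lay between -0.07 and 0.15 at every number. Its members went both ways, with 7 of 10 past the F test of numbers, against 31.5% of all genes. At number 2, 3 were higher and 3 lower, against 11.5% and 10.3% of all genes, such as Sftpa1 by 0.51 ± 0.08 (limma adjusted p = 0.000205) and the club cell gene Scgb1a1 by -0.47 ± 0.08 (adjusted p = 0.000376). Without A2 and C2, 4 were higher and 1 lower there, against 4.93% and 4.67% of all genes in that fit. Of the genes that define immature T cells of the thymus, Rag1 had a median of 1.96, Rag2 of 0.502, Dntt of 10.6 and Ptcra of 3.98, and the highest values were 64.4, 4.95, 45.5 and 18.8. Dntt was higher at number 2 by 1.75 ± 0.40 (limma adjusted p = 0.00349), and by 1.58 ± 0.60 without A2 and C2 (adjusted p = 0.114). The other 2 genes of that list, Cd1d1 and Arpp21, which other cells also express, had medians of 665 and 182. The processing notes name a mouse build without its role, so a low value does not show that a gene was absent.

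**Figure D5:**
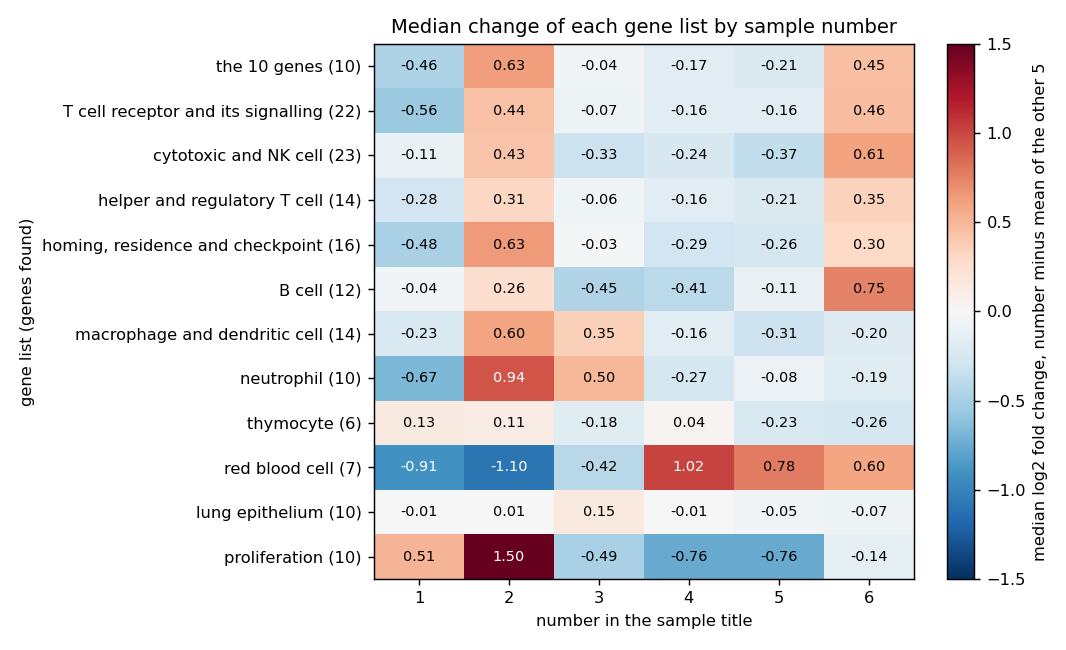
Median log2 fold change of each gene list (rows, with the number of genes found) for each sample number against the mean of the other 5 (columns). The receptor list falls to -0.56 at number 1 and the cytotoxic and NK cell list to -0.11, while the B cell list reaches 0.75 at number 6.

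Between letters the levels overlapped for every gene of the 10. Trac ranged from 622 to 1806 with a median of 1078 in A, from 603 to 1548 with a median of 1068 in B, from 663 to 1539 with a median of 1129.6 in C and from 678 to 1647 with a median of 1029.8 in G. Gzmb ranged from 681 to 4104 with a median of 842 in A, from 615 to 1282 with a median of 869 in B, from 657 to 1892 with a median of 795 in C and from 781 to 1975 with a median of 1243 in G. Prf1 ranged from 2763 to 4954 with a median of 3006 in A, from 2616 to 4583 with a median of 3012 in B, from 2156 to 4426 with a median of 2966 in C and from 2589 to 7246 with a median of 4084 in G. In each case the spread within a letter was wider than the gap between the letter medians. The F test of the 4 letters called 0 of 10 genes by limma, and 0 by limma voom, where 0.00652% of all genes were called. At an unadjusted p under 0.05 it called 0 of the 10, where 3.91% of all genes were called, and the lowest unadjusted p was 0.162.

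Over the 6 pairs of letters, 0 of 60 combinations of gene and pair passed (lowest limma adjusted p = 0.725), where the share of all genes called was 0% in each pair among A, B and C, 0.00652% for G against A and likewise for G against C, and 0.00326% for G against B. The 2 combinations with an unadjusted p under 0.05 were both in G against C, where 4.03% of all genes reached it. Prf1 there differed by 0.45 ± 0.20 on the log2 scale and Cd4 by 0.28 ± 0.14 (limma adjusted p = 1 for both). With number as a block, their adjusted p-values were 0.153 and 0.298 and again 0 of 60 combinations passed, where the share of all genes called was 1.27% in G against A, 0.00652% in G against B, 0.0359% in G against C and 0% in the other pairs. The F test of letters with that block also called 0 of the 10 genes, where 0.0391% of all were called. Gzmb was higher in G than in the B sample of the same number in 6 of 6 numbers, with a log2 difference of 0.53 ± 0.33 (adjusted p = 1). Against A and against C, it was higher in G in 4 and 5 of 6 numbers. The count against B was picked from those of all 10 genes, and the share of all genes that reach it was not computed. The median difference of the 10 genes was 0.08 in G against B and 0.13 in G against C, with 10 and 9 genes above 0. It was 0.03 in G against A, with 5. The medians over all genes were 0.0004, -0.0004 and -0.0054 in that order. These 3 comparisons share the G samples. Many of the 10 genes vary together, so the counts are not of separate signs, and the share of all genes above 0 was not computed.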

How the data were processed

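RNA from 24 rat lung samples was sequenced from isolated mRNA, per the labels' protocols. The authors deposited 1 table of signal values, normalized read counts that are not whole numbers, for 30667 genes named by symbol. The submitters' processing notes name STAR and the mouse build GRCm38 without saying what each was used for. Outside the check of lung and thymus markers, the level of 1 gene was therefore not ranked against that of another. Differences between genes in the same sample, and sums of list genes, were compared only between samples. Counting, strand and normalization are not given in the sources used here. A scale per sample brought 85.1% to 99.8% of the positive values to within 0.1 of a whole number, with totals from 60276562 to 67274951, which was used only for an alternative test.

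Values were tested as log2(value + 1) with limma 3.58.1 in R 4.3.3 (trend, Benjamini-Hochberg adjustment over all genes, threshold 0.05, genes with a mean of at least 0.5, which all passed). Letters were compared without and with number as a block, and numbers with letter as a term. Samples of the same number deviated together in every pair only for B against A (correlations 0.17 to 0.59) and C against B (0.13 to 0.60). The 10 genes, the 11 other lists and the tests were chosen with earlier results of these data known, so their p-values are not independent evidence. Named genes are the 10, and the 5 genes most like Cd3e and most like Prf1. Also named are some list genes that define a list or had called differences (at most 4 for each list and number, not always the largest). The scripts were tested on simulated data. Trac was not matched by symbol in RefSeq and no promoter entry was found for Cd4. Some listed genes are not reported here by name.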

Additional observations from a re-analysis of the deposited data

Results flagged for a closer look

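In each letter, the highest and lowest of the 6 samples were compared with the nearest other sample for each of the 10 genes. In 6 of these 40 groups of samples the gap was above the 95% limit of Dixon's test. For independent groups of normally distributed values chance gives about 1 in 20, or 2 here. The groups are not independent, since they hold the same samples and related genes, and all 6 gaps lay in A2, C2 or G6. The gaps were taken on untransformed counts and not for all genes, so 6 against 2 shows no excess particular to these genes. Cd8a was 3777 in A2, where the next sample of A was 1533, and 2708 in C2, where the next sample of C was 1405. Gzmb was 4104 in A2 and 1892 in C2, with next samples of 1251 and 931. Prf1 was 7246 and Nkg7 2231 in G6, with next samples of G at 4266 and 1145. Neutrophil marker sums were 35424 in A2 and 22576 in C2, and between 2948 and 15474 in the other 22 samples. Their part in these values was not tested.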

How the results depend on the processing

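Other pseudocounts, filters, scalings, sample weights, models and left-out samples were tried, and 3 were added after the data had been seen (limma voom on rescaled values, and leaving out A2 and C2 or A4 and B4). The F test of letters and the letter pairs called 0 of the 10 genes in every alternative. The F test of numbers called 9 to 10 and the number contrasts 20 to 27 combinations, against 10 and 24 with all samples. With all samples, the F test of numbers called 9653 genes, 31.5% of all, and the number contrasts called 16408 combinations over all 30667 genes. Of 1122 alternative values for single genes, 1066 kept their call and direction, 55 lost the call and 1 reversed: Gzmb at number 2 was -0.0901 without A2 and C2. Over all genes, the letters F test called 2, and 1 after quantile normalization, after scaling by the 75th percentile, without A2 and C2, without A4 and B4, and when most single samples were left out (1 to 2).

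With number as a replicate block, the pairing left the counts of called genes among the 10 at 0 for the F test of letters and at 0 for the letter pairs. Over all genes it called 12 by the F test, against 2, and 404 over the letter pairs, against 5. Same-numbered samples had a correlation over 0.1 in every pair for 2 of the 6 letter pairs, and in 4 or 5 of 6 pairs for the others.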
